A study of Homo sapiens with 4 samples.

Results

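The peaks described here are regions of NSUN2-bound RNA that lie in the 3′ untranslated region (3′ UTR) of a protein-coding gene, the stretch of an mRNA between the stop codon and the poly(A) tail. They were taken from the authors' peak lists, of which there is 1 for lactate-treated and 1 for vehicle-treated cells, as every row whose gene is of the protein-coding type and whose annotation names the 3′ UTR. This gave 7416 of 48104 peaks in the lactate list, in 4949 genes, and 12384 of 95785 peaks in the vehicle list, in 6726 genes. Among peaks of protein-coding genes alone, which numbered 40883 in the lactate list and 78491 in the vehicle list, they made up 18.1% and 15.8%.

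NSUN2 is an RNA methyltransferase that places 5-methylcytosine (m5C) on tRNAs and on some mRNAs, where readers such as YBX1 and ALYREF bind the mark. The 3′ UTR does not code for protein. It carries the binding sites of microRNAs and of proteins such as ZFP36 and ELAVL1, through which a message is stored, translated, stabilised or degraded, and it ends at the site where the RNA is cleaved and polyadenylated.

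RNA was immunoprecipitated with an antibody against NSUN2 from PANC-1 cells, an established line of human pancreatic ductal adenocarcinoma wild type in all groups and grown in 10% serum. The lactate group received 30 mM sodium lactate for 24 h and the vehicle group received ddH2O, and each gave 1 IP library (antibody on protein A/G beads, 4 h at 4 °C) and 1 input library. Full-length cDNA was amplified with SMART-Seq v4 to make the libraries. No library made with a control antibody is analysed here, so a peak is enrichment of the IP over its own input and may include RNA that binds beads or antibody.

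With 1 library in each of the 4 groups there is no replicate error. The differences below are described without a test, peaks and genes are not replicates of a condition, and any interval covers counting error only. Recovered totals were 15189967 reads in the lactate IP, 11175432 in the lactate input, 13620414 in the vehicle IP and 17626197 in the vehicle input. Reads outside mitochondrial genes made up 13.9% of the lactate IP (2112293 reads), 20.9% of the lactate input (2339149), 30.3% of the vehicle IP (4125498) and 31.3% of the vehicle input (5511654), so the lactate IP had the fewest reads from nuclear genes. The part of this depth in the number, width and overlap of the peaks was not tested. Reads given below for a peak were recovered from the authors' comparison of the IPs. The window in which that comparison counted them is not known and may differ from the listed interval of the peak. Of the 10 markers of ductal adenocarcinoma and PANC-1 cells, 7 had at least 1 FPKM (fragments per kilobase, scaled to library size) in each input. CDH1, KRT7 and MUC1 were below it in both inputs. The 10 summed to 1987 FPKM in the lactate input and 3330 FPKM in the vehicle input. Most of this was S100A6 alone, with 1740 FPKM in the lactate input and 2929 FPKM in the vehicle input. Of the markers of other cells, the gene table used here lists 1 of 6 acinar, 0 of 4 endocrine, 2 of 5 immune, 2 of 3 endothelial and 3 of 6 nerve cell markers, so little can be read from them. The sums over those listed were below 1 FPKM in all 4 libraries. The 4 of 5 fibroblast markers listed summed to between 1.78 and 3.06 FPKM.

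Of 1562 annotated microRNA hairpins searched, 5 overlapped a 3′ UTR peak, 3 of them in the lactate list and 4 in the vehicle list. Those overlapped by peaks of both lists were MIR1825, in POFUT1, the enzyme that adds O-fucose to Notch receptors, and MIR6728, in the glycolytic enzyme gene ENO1. Their mature sequences are shown because they are short RNAs that could be cut from a hairpin the bound region overlaps. The seed (bases 2 to 8) is in capitals, and the sequences are from RefSeq for GRCh38.p14.
hsa-miR-1825: uCCAGUGCccuccucucc
hsa-miR-6728-5p: uUGGGAUGguaggaccagagggg
hsa-miR-6728-3p: uCUCUGCUcugcucuccccag
The 3 seeds differ from one another. The whole MIR1825 hairpin (chr20:32237795-32237847, plus strand) lay inside a 947 bp lactate peak of 16.2-fold enrichment and a 1501 bp vehicle peak of 9.18-fold enrichment, with 264 reads in the lactate IP and 510 in the vehicle IP. MIR6728 (chr1:8866502-8866590, minus strand) was overlapped by peaks of 3.34-fold in the lactate list and 2.42-fold in the vehicle list, with 33 reads in the lactate IP and 69 in the vehicle IP. The vehicle peak covered all 89 bases of the hairpin. The lactate peak covered 77 of them and ended at 8866578. The miR-6728-5p sequence (8866563 to 8866585) ran past the end of the lactate peak on its seed side. The peak summits were 5367 bp (lactate) and 5445 bp (vehicle) upstream of the end of ENO1. A peak over a hairpin locates bound RNA of the host message, and does not show that the microRNA was made. The remaining 3 hairpins were MIR4700 in UNC119B (lactate list), MIR6780A in the Polycomb methyltransferase gene EZH1 (vehicle list) and MIR6747 in a host without a symbol (vehicle list). The MIR4700 peak had a q of 0.479. The MIR6780A peak also had a q above 0.05, with 0 reads in the lactate IP and 3 in the vehicle IP, 7783 bp upstream of the gene end.

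The question first asked was how many 3′ UTR peaks each condition gave, and how this compares with other parts of genes. The lactate list held 0.599 times as many 3′ UTR peaks as the vehicle list. For the other classes the ratio of lactate over vehicle was 0.523 for intron peaks, 0.465 for exon peaks and 0.415 for 5′ UTR peaks. Introns gave most peaks in both lists, at 61.5% of protein-coding peaks in the lactate list and 61.2% in the vehicle list. Exons gave 18.8% in the lactate list and 21.0% in the vehicle list, and 5′ UTRs 1.58% in the lactate list and 1.98% in the vehicle list.

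The share of 3′ UTR peaks depended on how far down the list of peaks it was counted. Among the strongest 1000 peaks by the authors' p, 49.4% of the protein-coding peaks of the lactate list and 43.5% of those of the vehicle list lay in 3′ UTRs, while introns gave 6.74% in the lactate list and 1.76% in the vehicle list. The shares were nearly equal among the strongest 5000, at 41.9% in the lactate list and 42.7% in the vehicle list. When both lists were read down to the same 48104 peaks, the lactate share of 18.1% was below the vehicle share of 21.7%, the opposite order to that of the whole lists. Which list had the higher share thus depended on how many peaks were counted.

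**Figure D1:**
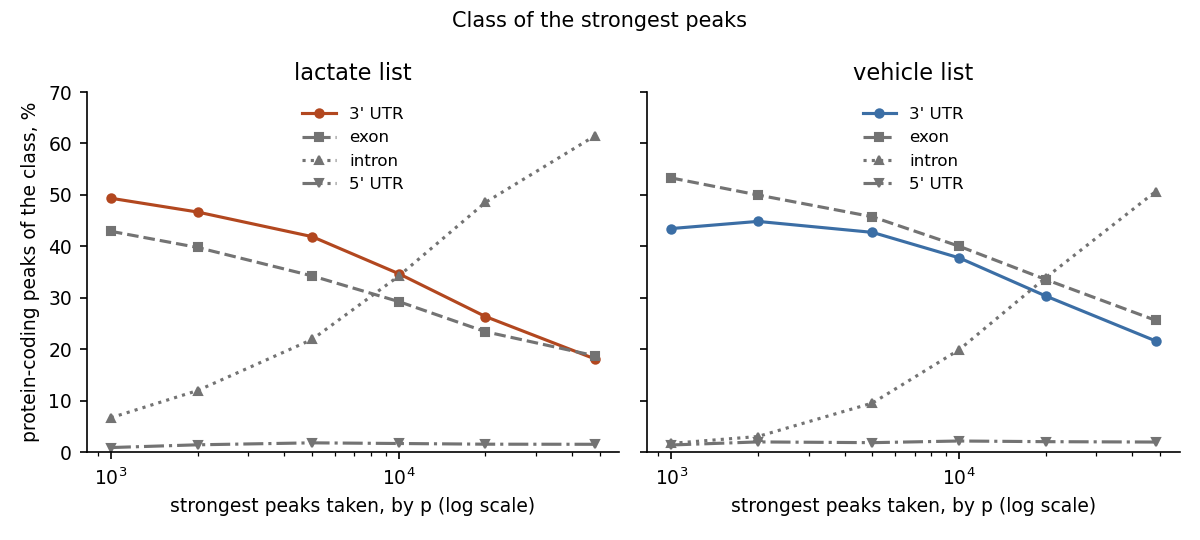
Share of protein-coding peaks in each class (y, percent) among the strongest peaks by p (x, log scale), in the lactate list (left) and the vehicle list (right), each from 1 library. The 3′ UTR share falls from 49.4% to 18.1% down the lactate list and stands at 43.5% among the strongest 1000 and 21.7% among the strongest 48104 of the vehicle list, while the intron share climbs.

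3′ UTR peaks had a low q-value more often than peaks of other classes. The authors' lists also hold peaks with a q-value above 0.05. A q-value of at most 0.05, a threshold set here, was reached by 4822 lactate peaks (65.0%) and 8749 vehicle peaks (70.6%), against 55.9% of lactate and 62.5% of vehicle exon peaks, and 35.1% of lactate and 41.8% of vehicle intron peaks. The fold enrichment of IP over input is the authors' own value for each peak and ranks peaks within a list. Its median was 3.64 in the lactate list and 3.51 in the vehicle list, and 431 lactate and 918 vehicle peaks had at least 10-fold. Low counts limit these values: a single fold of 3.24 was listed at 302 lactate peaks, and one of 2.43 at 706 vehicle peaks. In the authors' deposited comparison of the IP libraries, 107 lactate peaks (1.44%) and 350 vehicle peaks (2.83%) had no read of their own IP library.

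The peaks were narrower in the lactate list. The median width was 300 bp (quartiles 211 and 416 bp) in the lactate list and 332 bp (quartiles 213 and 461 bp) in the vehicle list. The smallest listed width of 200 bp was held by 21.0% of lactate peaks and 21.2% of vehicle peaks, and widths of at least 500 bp by 14.0% of lactate and 19.9% of vehicle peaks. Exon peaks had medians of 280 bp in the lactate list and 327 bp in the vehicle list. The widest peak of both lists lay in ANKRD11, which encodes a chromatin-associated ankyrin repeat protein, and measured 2835 bp in the lactate list and 4201 bp in the vehicle list, with 1196 reads in the lactate IP and 2241 in the vehicle IP. Next came DCTN5 (a dynactin subunit, 2021 bp) and LRP10 (an LDL receptor family member, 1873 bp) in the lactate list, and GOLGB1 (the Golgi protein giantin, 2766 bp) and LONP2 (a peroxisomal protease, 2423 bp) in the vehicle list. Some of these lay far from the gene end. The ANKRD11 summits were 15893 bp (lactate) and 16733 bp (vehicle) upstream of it, GOLGB1 34391 bp and LONP2 9708 bp. The DCTN5 and LRP10 summits were 1388 bp and 1385 bp upstream.

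A large group of the peaks sat at a fixed distance from the end of the message. Summits were placed against the end of the gene in the RefSeq annotation of GRCh38.p14, which matched 98.2% of lactate and 98.1% of vehicle peaks by symbol. The 100 bp window from 100 to 199 bp upstream of the gene end held 1427 lactate summits (19.6%) and 1987 vehicle summits (16.4%). The window nearest the end held 320 lactate and 477 vehicle summits. The next window upstream of the peak window held 417 lactate and 567 vehicle summits, and the one after it 114 lactate and 200 vehicle summits. Within 500 bp of the gene end lay 33.0% of lactate and 28.2% of vehicle 3′ UTR peaks, against 8.02% of lactate and 6.53% of vehicle exon peaks.

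**Figure D2:**
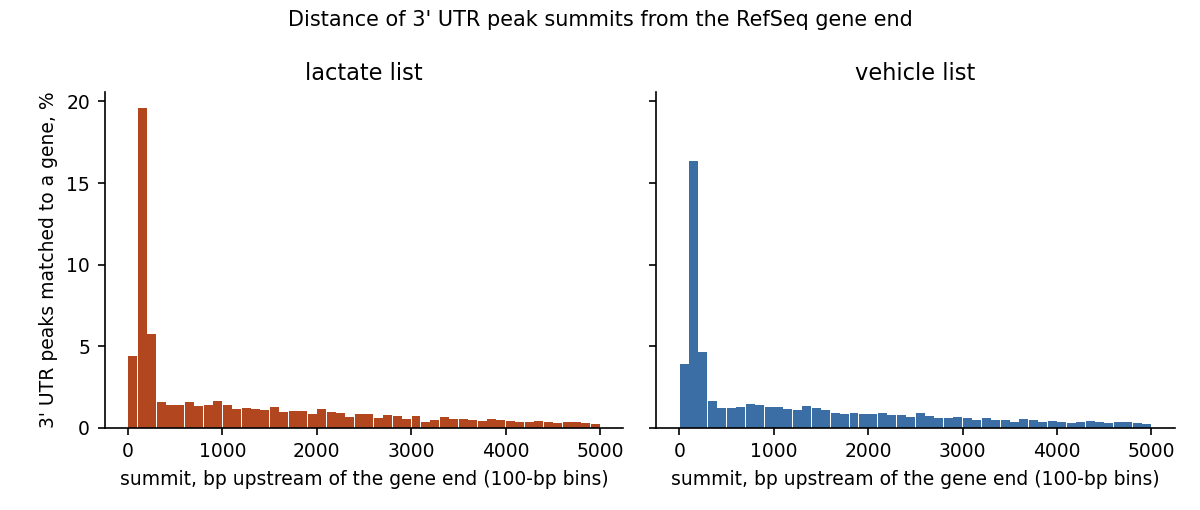
Distance of 3′ UTR peak summits upstream of the RefSeq gene end in 100 bp windows (x, up to 5 kb) as a percentage of peaks matched to a gene (y), lactate list left and vehicle list right. A single window, 100 to 199 bp, holds 19.6% of the lactate and 16.4% of the vehicle peaks.

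Not all peaks annotated as 3′ UTR lay near the end of their gene. Summits within 5 kb of it made up 68.7% in the lactate list and 61.8% in the vehicle list, and 2224 lactate peaks (30.5%) and 4552 vehicle peaks (37.5%) lay more than 5 kb upstream. The annotation of these upstream peaks rests on the transcript the authors' annotation chose, which can be one that ends inside the gene, and the files do not give its type. The upstream peaks were narrower, at a median of 264 bp in the lactate list and 292 bp in the vehicle list, against 312 bp in the lactate list and 350 bp in the vehicle list for those near the end. They also gathered on fewer genes, with 1.70 peaks per gene in the lactate list and 2.14 in the vehicle list, against 1.27 in the lactate list and 1.39 in the vehicle list near the end.

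The genes with the most 3′ UTR peaks were of this upstream kind. TTC3, a ubiquitin ligase gene of chromosome 21, had 23 lactate and 30 vehicle peaks, of which 22 lactate and 29 vehicle peaks lay over 5 kb upstream of its end, on 2 annotated transcripts. ATRX, a chromatin remodeller of heterochromatin, had 12 lactate and 14 vehicle peaks, every one of them upstream. AKAP9, a scaffold of the Golgi and centrosome, had 9 lactate and 22 vehicle peaks, and REV3L, the catalytic subunit of DNA polymerase zeta, had 8 lactate and 17 vehicle peaks. The mitotic kinesin KIF15 had 5 lactate and 16 vehicle peaks. The translation factor EIF4G3 had 4 lactate and 15 vehicle peaks, and the potassium channel gene KCNMA1 and the centrosomal genes PCNT and CEP290 also reached 15 in the vehicle list, where they tied with EIF4G3. In the lactate list the calpain inhibitor CAST, the collagen receptor ITGA2, the transcription factor ZBTB20, the deubiquitinase USP7 and the GTPase-activating SRGAP1 had 10 each, against 13, 11, 12, 14 and 9 in the vehicle list.

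Such genes were few. A single 3′ UTR peak was listed for 3484 of the lactate genes (70.4%) and 3979 of the vehicle genes (59.2%), and 6 or more for 52 lactate and 212 vehicle genes. Of the genes with a 3′ UTR peak, 1844 lactate genes (37.3%) and 1615 vehicle genes (24.0%) had no peak of another class, while 33.3% of the lactate and 51.0% of the vehicle genes also had an exon peak. The share of 3′ UTR peaks among protein-coding peaks also varied by chromosome. It was 30.5% in the lactate list and 24.0% in the vehicle list on chromosome 19, against 12.8% in the lactate list and 11.95% in the vehicle list on chromosome 6.

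The next comparison was whether the same 3′ UTR regions were listed under lactate and under vehicle. A 3′ UTR peak of the other list overlapped 5308 lactate peaks (71.6%) and 5233 vehicle peaks (42.3%) by at least 1 bp. Within the other classes, the same share was 71.1% of lactate and 32.6% of vehicle exon peaks, 57.0% of lactate and 23.4% of vehicle 5′ UTR peaks, and 46.5% of lactate and 23.9% of vehicle intron peaks. When peaks of any class of the other list were allowed, the shares for 3′ UTR peaks were 79.4% of the lactate peaks and 43.8% of the vehicle peaks, since 563 further lactate peaks lay under vehicle peaks annotated as exon. MAN1B1, described below, is a case of this in the other direction.

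Overlap followed the strength of the peak. In the weakest 25% of each list's 3′ UTR peaks by p, 45.3% of the lactate and 11.98% of the vehicle peaks were overlapped, and in the strongest 25%, 90.7% of the lactate and 82.9% of the vehicle peaks. Overlapped peaks had median widths of 336 bp in the lactate list and 441 bp in the vehicle list, against 213 bp in the lactate list and 250 bp in the vehicle list for those not overlapped. Position went the same way. Of peaks near the gene end, 73.6% of the lactate and 48.3% of the vehicle peaks were overlapped, against 67.8% of the lactate and 32.8% of the vehicle peaks over 5 kb upstream.

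**Figure D3:**
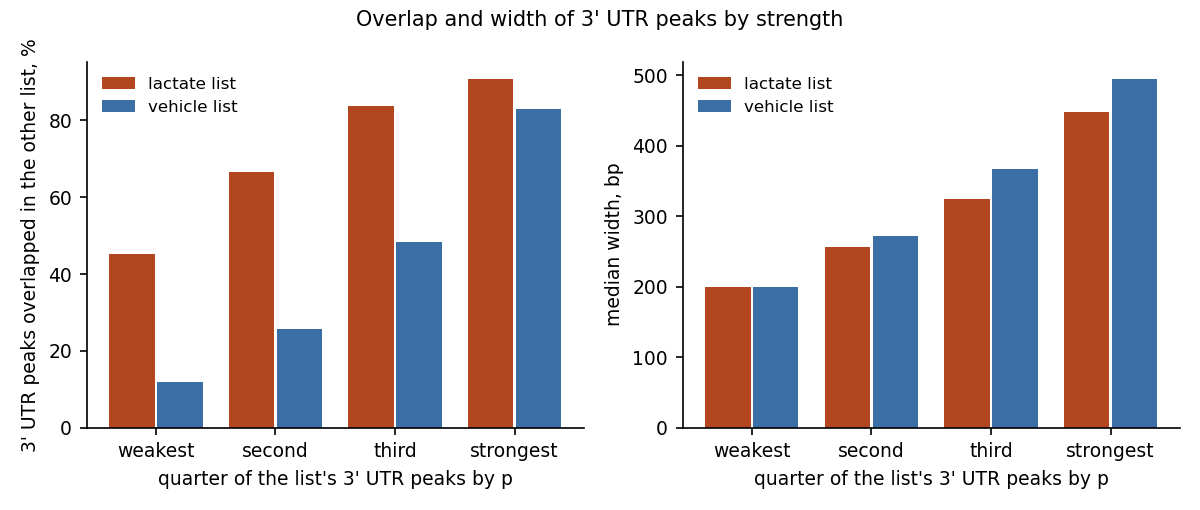
Percentage of 3′ UTR peaks overlapped by a 3′ UTR peak of the other list (left, y) and median width in bp (right, y) in bins of 25% of each list's 3′ UTR peaks by p (x), with lactate bars left of vehicle bars and 1 library behind each. Overlap goes from 45.3% to 90.7% from the weakest to the strongest lactate peaks and from 11.98% to 82.9% for the vehicle peaks.

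Where 1 lactate peak met 1 vehicle peak, in 5076 pairs, both marked nearly the same place. Summits lay a median of 34 bp apart, and 87.0% were within 100 bp. The lactate peak was the narrower one in 3793 pairs (74.7%) and the wider one in 1167, with median widths of 335 bp in the lactate list and 439 bp in the vehicle list. By gene, 4190 genes had a 3′ UTR peak in both lists, which is 84.7% of the lactate genes and 62.3% of the vehicle genes, while 759 had one in the lactate list alone and 2536 in the vehicle list alone.

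Reads in both IP libraries were compared at these regions with the authors' M, the log2 ratio of lactate IP over vehicle IP after their normalization, which sets common peaks near 0. The normalization varied with A, the authors' mean log2 density of a peak. The line taken off the log2 ratio had a recovered intercept of 0.2045 and a slope of −0.1687 per unit of A. At high A this raised M and offset the lower number of nuclear reads in the lactate IP, and at the lowest A it lowered M. M can therefore be positive where the lactate IP has fewer reads. In the authors' deposited table, 14450 compared peaks overlapped a 3′ UTR peak, and their median M was −0.35, against −0.50 for all 116484 compared peaks. The deposited table gave M of at least 1 for 789 of them (5.46%), where 13.9% of all compared peaks reached it, and M of at most −1 for 3754 (26.0%), where 38.6% did. Counted over all read levels together, both extremes were thus less frequent among 3′ UTR peaks than among all compared peaks. With the median of all compared peaks taken off the deposited table's M, the median at 3′ UTR peaks turned to 0.15, with 13.9% at 1 or more, where 22.0% of all compared peaks were on this scale, and 16.0% at −1 or less, where 28.4% were. The 3′ UTR peaks also had more reads behind them: their median A in the deposited table was 3.41, against 1.5 for all, and M near 0 was more frequent at high A. At like A the order of the low extreme partly turned round. From A of 1 to 4, M of at most −1 was more frequent at 3′ UTR peaks than at the other compared peaks. At A from 2 to 3 it was found for 32.7% of 3′ UTR and 23.0% of other peaks. Below A of 1 and above 4 it was less frequent at 3′ UTR peaks. M of at least 1 was less frequent there at every level of A.

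At most regions listed in 1 condition, reads of the other were also counted. By the authors' deposited table, 5963 of the 3′ UTR peaks were common to both lists (41.3%, against 22.6% of all compared peaks), with a median M of −0.07 and medians of 42 reads in the lactate IP and 71 in the vehicle IP. The 1531 marked as lactate only had a median M of 0.52 in the deposited table and medians of 10 reads in the lactate IP and 7 in the vehicle IP. For the 6956 marked as vehicle only, the deposited table gave a median M of −0.85, and the medians were 5.5 reads in the lactate IP and 14 in the vehicle IP. No read of the vehicle IP was found at 239 of the lactate-only peaks (15.6%), and none of the lactate IP at 1362 of the vehicle-only peaks (19.6%). At least 10 reads of the other library were found at 664 of the lactate-only peaks (43.4%) and at 2702 of the vehicle-only peaks (38.8%). Medians of M in the deposited table were further from 0 for the other compared peaks, at 1.51 for lactate only and −1.41 for vehicle only.

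**Figure D4:**
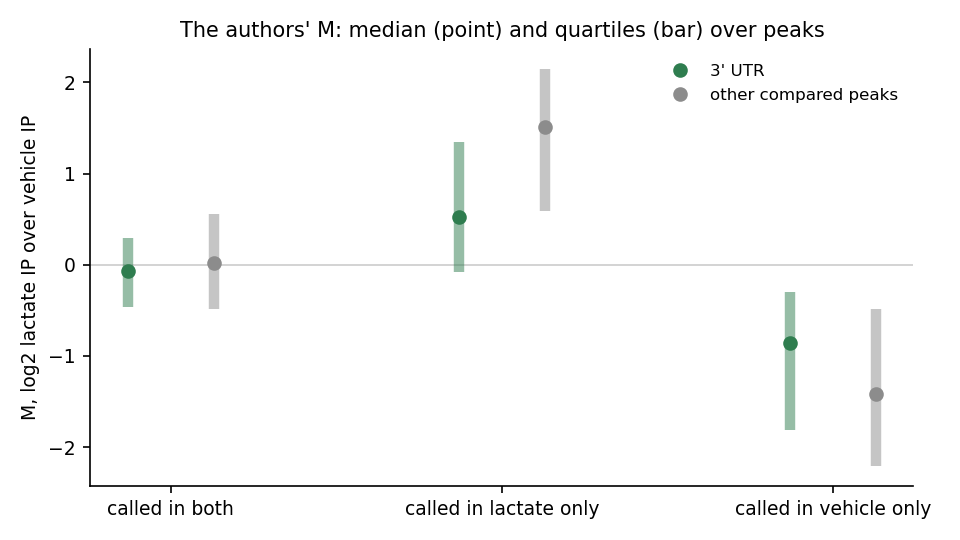
The authors' M (y, log2 lactate IP over vehicle IP) as the median (point) and quartiles (bar) over 3′ UTR peaks and over the other compared peaks, for peaks called in both lists, in lactate only or in vehicle only (x). The 3′ UTR medians are −0.07, 0.52 and −0.85, against 0.02, 1.51 and −1.41 for the other peaks.

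Position entered here too. In the authors' deposited table, lactate-list peaks near the gene end had a median M of 0.04 and those over 5 kb upstream −0.09. For vehicle-list peaks the deposited table gave −0.31 near the end and −0.64 upstream, where read numbers were lowest, with medians of 5 reads in the lactate IP and 12 in the vehicle IP. Median A also differed, at 4.78 near the end and 3.32 upstream in the lactate list. In the vehicle list it was 4.28 near the end and 2.04 upstream. The normalization raised M with A, and its part in these differences by position was not tested.

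Single peaks at the extremes of the lists show how the values combine. The highest fold in the lactate list was 62.4, in NSMF, which encodes a synapse-to-nucleus messenger protein of neurons (chr9:137447580-137448906, minus strand), against 13.8 for the higher of the 2 vehicle 3′ UTR peaks that overlapped it. NSMF had 187 reads in the lactate IP and 191 in the vehicle IP at this peak, and the authors' deposited table gave M of 0.87 (95% counting interval 0.57 to 1.17). Its gene level was 3.52 FPKM in the lactate IP and 0.091 FPKM in the lactate input, against 3.96 FPKM in the vehicle IP and 0.369 FPKM in the vehicle input. These gene levels rested on 263 reads in the lactate IP and 5 in the lactate input, and on 265 in the vehicle IP and 32 in the vehicle input. Each IP was thus above its own input, and the lactate input was the lowest of the 4 libraries, from few reads.

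CACNG8, an AMPA receptor auxiliary subunit, came next with 46.9-fold in the lactate list and 21.2-fold in the vehicle list, and with 564 reads in the lactate IP and 678 in the vehicle IP. BCL9L, a β-catenin coactivator, had 41.3-fold in the lactate list and 6.58-fold in the vehicle list, with 113 reads in the lactate IP and 80 in the vehicle IP. The whole BCL9L gene had 1 read in the lactate input and 26 in the vehicle input, so the lactate fold rests on almost no input reads. Its M in the authors' deposited table was 1.23 (95% counting interval 0.81 to 1.67). The other genes among the 10 highest of the lactate list were USP7, the natural killer ligand NCR3LG1, the cytochrome gene CYB561, the retinoid receptor RXRA, the glucose-sensing transcription factor gene MLXIP, the glycosyltransferase gene GALNT10 and ENSG00000285629, which has no symbol. Their folds lay between 30.6 and 38.1, with 0 to 213 reads of the whole gene in the lactate input, each had an overlapping vehicle peak, and their M in the authors' deposited table ran from −0.85 in ENSG00000285629 to 0.72 in MLXIP.

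In the vehicle list the highest fold was 48.5, in MAN1B1, a mannosidase of glycoprotein quality control in the endoplasmic reticulum (chr9:137108392-137109307, plus strand). No lactate 3′ UTR peak lay there, although a lactate peak annotated as exon overlapped it with 4.43-fold. MAN1B1 had 47 reads in the lactate IP and 167 in the vehicle IP, with M of −1.09 (95% counting interval −1.61 to −0.63) in the authors' deposited table. At gene level it had 0.418 FPKM in the lactate IP and 0.0658 FPKM in the lactate input, against 1.71 FPKM in the vehicle IP and 0.0783 FPKM in the vehicle input. The inputs rested on few reads, 8 in the lactate and 15 in the vehicle input, while the IPs had 69 in the lactate and 253 in the vehicle IP.

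TRMT61A, the catalytic subunit of the tRNA m1A methyltransferase, had 9.45-fold in the lactate list and 47.0-fold in the vehicle list. Its reads, 94 in the lactate IP and 165 in the vehicle IP, gave M of −0.0019 in the authors' deposited table, so its unequal folds stood beside a nearly equal normalized IP density. TYRO3 (a receptor tyrosine kinase), PSME4 (a proteasome activator), SRGAP1, PPFIA1 (liprin-α1, of focal adhesions), GHDC, ASH1L (a histone methyltransferase) and JAK1 (a cytokine receptor kinase) were also among the 10 highest of the vehicle list, at 33.4-fold to 38.9-fold and with 7 to 725 reads of the whole gene in the vehicle input. For these 7 genes M in the authors' deposited table ran from −0.93 in SRGAP1 to 0.38 in PPFIA1. The peaks of PSME4, SRGAP1, PPFIA1, ASH1L and JAK1 were of the upstream kind, from 33783 bp (JAK1) to 143971 bp (ASH1L) upstream of the gene end. Those of TYRO3 and GHDC lay within 5 kb of it.

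Among genes with overlapping peaks in both lists, the highest M came partly from few reads. MON2, a trafficking regulator of the Golgi, had M of 3.23 in the authors' deposited table from 17 reads in the lactate IP and 1 in the vehicle IP (95% counting interval 1.48 to 9.54). SP3, a GC-box transcription factor, had 36 reads in the lactate IP and 9 in the vehicle IP, with M of 2.23 in the authors' deposited table. WTIP, a LIM domain protein, had 23 in the lactate IP and 5 in the vehicle IP and the same rounded M in the deposited table. The MON2 and WTIP peaks lay over 5 kb upstream of the gene end. The MON2 peaks of both lists had a q above 0.05, as did the vehicle peaks of SP3 and WTIP. BTN3A2, a butyrophilin of T cell recognition, rested on more reads, 102 in the lactate IP and 35 in the vehicle IP, with M of 2.14 in the authors' deposited table (95% counting interval 1.60 to 2.77).

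EGR1, an immediate early transcription factor, had the most reads of these. At its peak (chr5:138468319-138468572 in the lactate list), 329 reads were counted in the lactate IP and 147 in the vehicle IP. M in the authors' deposited table was 2.098 (95% counting interval 1.82 to 2.39). Fold enrichment over input went the other way, at 1.93 for this lactate peak and 6.95 for the overlapping vehicle peak. The EGR1 level was 10.6 FPKM in the lactate IP and 7.50 FPKM in the lactate input, against 4.94 FPKM in the vehicle IP and 1.34 FPKM in the vehicle input. The input was therefore also higher under lactate, and log2 IP over input for the gene was 0.45 in lactate cells and 1.34 in vehicle cells.

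The 5 lowest M among genes with overlapping peaks lay between −2.82 and −2.60 in the authors' deposited table, with 2 to 8 reads in the lactate IP and 22 to 73 in the vehicle IP. These peaks were in the RNA helicase gene DDX56, the Hippo pathway kinase gene STK4, the Golgi protein gene GLG1, CAST and USP7. All but the DDX56 peak lay over 5 kb upstream of the gene end. The lactate peaks of DDX56, STK4 and USP7 among these had a q above 0.05. DDX56 had 4 reads in the lactate IP and 42 in the vehicle IP, and M of −2.82 in the deposited table (95% counting interval −5.05 to −1.65). USP7 also held 1 of the 10 highest folds of the lactate list, at another site 23373 bp from its end where the authors' deposited table gave M of 0.03. Peaks of 1 gene thus had different M.

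CDCP1, a cell surface glycoprotein linked to migration, had 4 3′ UTR peaks in each list, within 402 to 3002 bp of the gene end by their lactate summits, and each lactate peak overlapped 1 vehicle peak. From the gene end upstream, 405, 259, 95 and 70 reads were counted at the peaks in the lactate IP. In the vehicle IP they were 557, 350, 95 and 83. M in the authors' deposited table was 0.67, 0.58, 0.74 and 0.44, where the interval of the last, −0.04 to 0.92, included 0. The gene stood at 12.4 FPKM in the lactate IP and 3.81 FPKM in the lactate input, against 16.0 FPKM in the vehicle IP and 3.13 FPKM in the vehicle input. Fold enrichment, in the same order, was 2.289, 3.96, 4.51 and 3.04 in the lactate list and 5.54, 2.78, 4.52 and 6.42 in the vehicle list. It was thus lower in the lactate list at the first and last peak, higher at the second and nearly equal at the third.

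STC1, a secreted glycoprotein hormone, had 1 3′ UTR peak in the lactate list, of 2.11-fold at a q of 0.133, and none in the vehicle list. At this lactate-list peak, 42 reads were counted in the lactate IP and 21 in the vehicle IP. M in the authors' deposited table was 1.43 (95% counting interval 0.67 to 2.291). NSUN2 itself had 1 peak in the vehicle list of 3.64-fold at a q of 0.0193, and none in the lactate list. The authors' comparison recorded 0 reads of the lactate IP and 1 of the vehicle IP there, so no difference was detectable at this depth.

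At the level of whole genes, messages with a 3′ UTR peak were more often higher in the IP than in the input than those without one. In lactate cells 78.02% of genes with a peak and 25.1% of those without had a log2 ratio above 0, and in vehicle cells 82.6% of genes with a peak and 38.6% of those without. Peaks and gene values come from the same reads, so the values describe the genes and are no independent support. Log2 of (IP FPKM + 1) over (input FPKM + 1) was taken for protein-coding genes with at least 1 FPKM in 1 of the 2 libraries. In lactate cells the 2434 genes with a lactate 3′ UTR peak had a median of 0.60, and the 3458 without one −0.65. In vehicle cells the 3978 genes with a vehicle 3′ UTR peak had a median of 0.76, and the 3385 without one −0.35.

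Counts past 2-fold followed. Of the genes with a peak, 581 (23.9%) reached a log2 ratio of at least 1 in lactate cells, where 13.7% of all tested genes did, and 1390 (34.9%) in vehicle cells, where 26.0% did. A log2 ratio of at most −1 was found for 103 (4.23%) in lactate cells, where 22.4% of all tested genes had it, and for 136 (3.42%) in vehicle cells, where 14.8% had it. The median over all tested genes was −0.11 in lactate cells and 0.42 in vehicle cells. With it taken off, genes with a peak had a median of 0.71 in lactate cells and 0.35 in vehicle cells, and 30.7% of the lactate and 15.8% of the vehicle genes reached at least 1, where 17.3% of all tested genes in lactate cells and 11.9% in vehicle cells did. At most −1 on this scale were 3.45% of the lactate and 7.32% of the vehicle genes, where 19.6% of all tested genes in lactate cells and 23.0% in vehicle cells were. Genes with a 3′ UTR peak in both lists had medians of 0.62 in lactate cells and 1.01 in vehicle cells, and those with one in the lactate list alone 0.43 in lactate cells and 0.70 in vehicle cells. Genes with a peak in the vehicle list alone had medians of −0.31 in lactate cells and 0.22 in vehicle cells, while genes without any had −0.81 in lactate cells and −0.55 in vehicle cells.

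Having a 3′ UTR peak did not become steadily more frequent with abundance. The share of protein-coding genes with a 3′ UTR peak was 21.5% in the lactate list and 34.2% in the vehicle list below 0.3 FPKM in the IP, and from 1 to 3 FPKM it was 49.9% in the lactate list and 60.2% in the vehicle list. It was lower again at 30 FPKM or more, at 24.8% in the lactate list and 39.9% in the vehicle list, although the median gene there had 2429 reads in the lactate IP and 2402.5 in the vehicle IP.

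**Figure D5:**
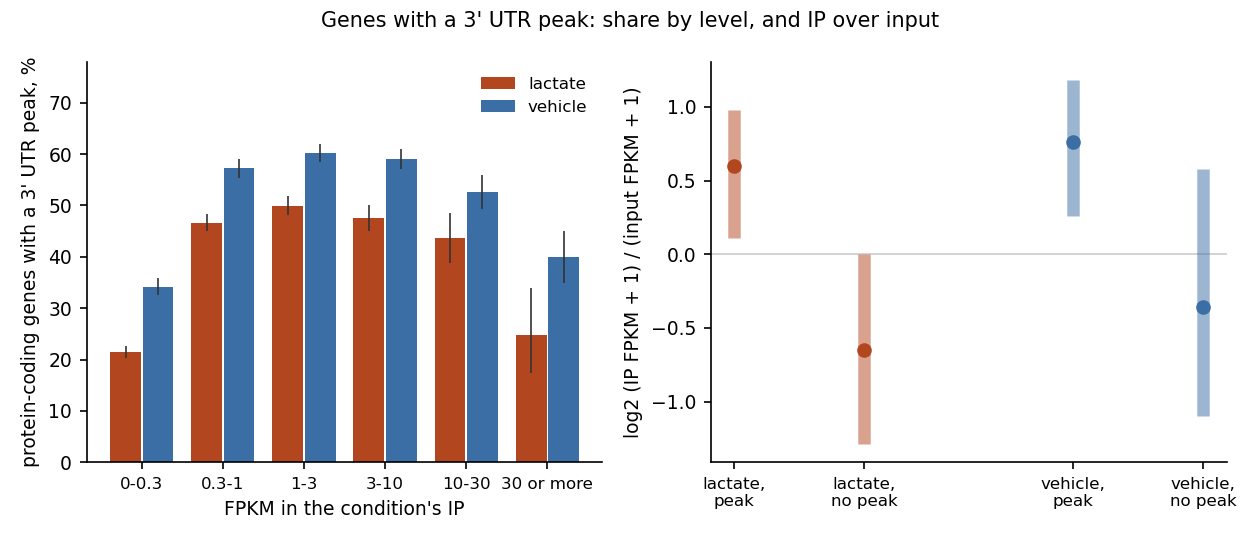
Left, share of protein-coding genes with a 3′ UTR peak (y, percent, with 95% Wilson intervals for counting error) by FPKM in the condition's IP (x), lactate bars left of vehicle bars. Right, log2 IP over input (y) as the median (point) and quartiles (bar) of genes with and without a 3′ UTR peak, with medians of 0.60 and −0.65 in lactate cells and 0.76 and −0.35 in vehicle cells.

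Gene groups differed in how many members had a 3′ UTR peak. A fold given below for a member is that of its best peak in each list. The best peaks of the 2 lists can be different sites of the gene, and some had a q above 0.05. Members are counted where they had at least 1 FPKM in the IP, and 48.1% of all such protein-coding genes in the lactate list and 57.7% in the vehicle list had a peak, with 42.9% in both lists among genes measured in both. Cytosolic ribosomal protein genes, which are short and abundant, were mostly without one: 6 of 71 (8.45%) in the lactate list and 14 of 76 (18.4%) in the vehicle list. RPL13A had one in both lists, of 1.53-fold in the lactate list and 3.72-fold in the vehicle list. RPS24 had one in the vehicle list alone, at 13.5 FPKM in the lactate IP against 151 FPKM in the lactate input, and 52.3 FPKM in the vehicle IP against 244 FPKM in the vehicle input. Over the list the median log2 IP over input was −0.98 in lactate cells and −0.43 in vehicle cells. Replication-dependent histone genes, whose messages end in a stem-loop and not in poly(A), had 0 of 3 in the lactate list and 1 of 7 in the vehicle list.

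Messages known from earlier work as NSUN2 substrates had a 3′ UTR peak in 12 of 17 (70.6%) in the lactate list and 13 of 19 (68.4%) in the vehicle list. The members of highest fold were QSOX1, a disulfide-forming oxidase, LRRC8A, a subunit of the volume-regulated anion channel, the signalling adaptor GRB2 and the cell cycle factor E2F1. Their lactate folds were 7.17 for QSOX1, 13.4 for LRRC8A, 11.1 for GRB2 and 6.86 for E2F1. In the vehicle list QSOX1 had 15.9, LRRC8A 6.17, GRB2 2.71 and E2F1 10.2. For LRRC8A and GRB2 these are folds of different sites. The LRRC8A peaks lay 1097 bp from the gene end in the lactate list and 118 bp in the vehicle list. Those of GRB2 lay at 1594 bp in the lactate list and 154 bp in the vehicle list. E2F1 stood at 3.97 FPKM in the lactate IP and 0.732 FPKM in the lactate input, against 7.29 FPKM in the vehicle IP and 0.991 FPKM in the vehicle input. The list's median log2 IP over input was 0.81 in lactate cells and 1.33 in vehicle cells, while all genes measured in both conditions had −0.11 in lactate cells and 0.31 in vehicle cells.

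Messages with AU-rich 3′ UTR elements, sequences that speed decay, had a peak in 10 of 20 in the lactate list and 14 of 24 (58.3%) in the vehicle list, close to the shares of all genes. CCND1, the G1 cyclin, had 4.30-fold in the lactate list at 181 bp from its end and 3.67-fold in the vehicle list at 156 bp. The members of highest fold, at any level of expression, were TNFAIP3, an inhibitor of NF-κB, the cytokine LIF, the transcription factor KLF6, and EGR1. Within the lactate list TNFAIP3 had 8.43-fold, LIF 7.92-fold, KLF6 7.08-fold and EGR1 2.64-fold. Within the vehicle list TNFAIP3 had 4.72-fold, LIF 5.20-fold, KLF6 6.01-fold and EGR1 6.95-fold. The KLF6 folds are of different sites, 3229 bp from the gene end in the lactate list and 1117 bp in the vehicle list. Those of EGR1 lay at 198 bp in the lactate list and 865 bp in the vehicle list. The chemokine message CXCL8 had no 3′ UTR peak and was listed at 0 FPKM in both IPs, with 4.53 FPKM in the lactate input and 3.31 FPKM in the vehicle input.

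RNA-binding proteins of the 3′ UTR had a peak in 16 of 29 (55.2%) in the lactate list and 18 of 31 (58.1%) in the vehicle list. Members of the microRNA effector complex carried several each. TNRC6A had 7 lactate and 7 vehicle peaks, TNRC6B 6 lactate and 9 vehicle peaks, and AGO1 5 lactate and 8 vehicle peaks. AGO2 had 4 lactate and 6 vehicle peaks, and AGO3 8 lactate and 14 vehicle peaks. Among the high folds were those of LARP1, which binds messages with a 5′ terminal oligopyrimidine tract, with 10.0 in the lactate list and 23.7 in the vehicle list, and of QKI, a splicing and stability factor, with 3.36 in the lactate list and 14.8 in the vehicle list. Both were of the upstream kind. By their vehicle summits, the LARP1 peak lay 24955 bp and the QKI peak 99777 bp upstream of the gene end. No 3′ UTR peak was listed for ELAVL1, YBX1, PABPC1, FXR1 or TIA1.

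Cleavage and polyadenylation factors had a peak in 2 of 8 in the lactate list and 8 of 12 (66.7%) in the vehicle list. Among them PAPOLA, a poly(A) polymerase, had 6.86-fold in the lactate list and 3.78-fold in the vehicle list. These were different sites, 10831 bp from the gene end in the lactate list and 22887 bp in the vehicle list. For m5C enzymes and readers the counts were 1 of 5 in the lactate list and 4 of 7 in the vehicle list. The highest folds were those of the RNA-binding protein FMR1, with 6.77 in the lactate list and 14.4 in the vehicle list, and of NSUN4, the m5C enzyme of mitochondrial ribosomal RNA, with 11.6 in the lactate list and 12.4 in the vehicle list. The FMR1 folds are of different sites, 13639 bp from the gene end in the lactate list and 18555 bp in the vehicle list. The m5C dioxygenase genes TET1, TET2 and TET3 had peaks in both lists, although the lactate peaks of TET1 and TET2 had a q above 0.05. These lists are too short for their shares to be set against each other.

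Lactate transport, lactate dehydrogenase and lactylation genes had a peak in 7 of 14 in the lactate list and 10 of 18 (55.6%) in the vehicle list. The members of highest fold were AARS2, an alanyl-tRNA synthetase with lactyltransferase activity, the acetyltransferase gene CREBBP, the mitochondrial deacylase gene SIRT3 and SLC16A3, the lactate exporter MCT4. In the lactate list AARS2 had 7.65-fold, CREBBP 2.71-fold, SIRT3 5.13-fold and SLC16A3 4.73-fold. The CREBBP lactate peak had a q of 0.155. In the vehicle list AARS2 had 11.6-fold, CREBBP 11.4-fold, SIRT3 9.33-fold and SLC16A3 8.58-fold. SLC16A3 had M of 0.81 in the authors' deposited table, with a gene level of 3.59 FPKM in the lactate IP and 0.659 FPKM in the lactate input, against 4.87 FPKM in the vehicle IP and 0.584 FPKM in the vehicle input.

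Genes of perineural invasion, axon guidance and nerve growth had a peak in 7 of 10 in the lactate list and 10 of 12 (83.3%) in the vehicle list. The members of highest fold were the ephrin receptor EPHB2, the semaphorin receptors PLXND1 and PLXNA1 and the adhesion molecule L1CAM. In the lactate list EPHB2 had 8.69-fold, PLXND1 16.2-fold, PLXNA1 5.74-fold and L1CAM 2.03-fold. In the vehicle list EPHB2 had 25.9-fold, PLXND1 16.3-fold, PLXNA1 9.09-fold and L1CAM 10.3-fold. The best EPHB2 peaks of the lists matched different compared peaks, with M of 0.31 (lactate list) and 0.56 (vehicle list) in the authors' deposited table.

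Collagens, integrins and matrix proteins had a peak in 11 of 16 (68.8%) in each list. The integrin gene ITGB4 had a 17.5-fold peak in the vehicle list and no 3′ UTR peak in the lactate list. M at that vehicle peak was 0.33 in the authors' deposited table, so its normalized IP density was not lower under lactate. In the lactate list ITGA2 had 6.60-fold, ITGA3 11.7-fold and ITGAV 3.76-fold, and in the vehicle list ITGA2 had 17.3-fold, ITGA3 7.50-fold and ITGAV 9.10-fold. The best ITGA2 peaks also matched different compared peaks, with M of −1.87 (lactate list) and −1.63 (vehicle list) in the authors' deposited table. Mitotic and cell cycle genes had a peak in 8 of 25 (32.0%) in the lactate list and 11 of 26 (42.3%) in the vehicle list. Within the lactate list the cyclin-dependent kinase gene CDK6 had 10.5-fold and the spindle checkpoint gene BUB1B 2.73-fold. A fold of 2.73 was listed at 260 lactate peaks, so the BUB1B value is of the repeated kind limited by low counts. The vehicle folds were 10.1 for CDK6 and 9.71 for BUB1B. M in the authors' deposited table was −2.50 at the best BUB1B peak of each list. The same value was listed for the best vehicle peaks of CD274 and NCAM1, so this M is also of the repeated kind.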

How the data were processed

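Sources are the deposited files and labels. Per the submitters' processing notes, the build was GRCh38 and tools were HOMER 4.11.1, DiffBind, bedtools 2.29.2, MACS2 2.2.7.1, HISAT2 2.1.0 and fastp 0.20.1. Settings, read counter and annotation release: not given in the sources used here. Gene values were deposited in FPKM by the authors. Per the file headers, each of the authors' peak lists sets 1 IP library against its own input, and gives width in bp (other), fold enrichment as a ratio, the q-value and p-value, and the −log10 of each. The authors' deposited comparison of the IPs gives normalized read density (signal), M on the log2 scale and A. Its headers use MAnorm's column names, although no source names that program, and its P was not used. Reads per gene and per peak were recovered from FPKM and from M and A. The window in which the comparison counted the reads of a peak is not given, and may not be the listed interval. At the ENSG00000285629 peak, 16 reads in the lactate IP and 40 in the vehicle IP were recovered. The whole gene had 1 in the lactate IP and 3 in the vehicle IP. All (100%) of the 72387 non-zero FPKM values gave whole reads to a tolerance of 0.001, and 100% of 113291 peaks under 200 reads did so to 0.02. Recovery of gene reads was checked on simulated data. Values come from Python 3.11.15 with pandas 2.3.3, numpy 2.4.6 and scipy 1.17.1, and overlaps (at least 1 bp) from bedtools 2.31.1. Gene ratios used a pseudocount of 1 and a minimum of 1 FPKM. Intervals on M use binomial counting at 95%, and the kit adds no molecular identifiers. Named were the 10 genes of highest fold per list at q of at most 0.05, the 5 with most peaks, the 5 highest and 5 lowest M among overlapping peaks at A of at least the median, the 3 widest peaks, CDCP1, STC1 and NSUN2, and list members of highest fold. A gene that these rules name is not reported here. Others, such as CCND1, SLC16A3 and E2F1 levels, the AGO and TNRC6 genes, RPS24, RPL13A, CXCL8 and members without a peak, were picked after their values were seen. The peaks and lists were chosen with earlier results of these data known. Alternatives were stricter thresholds, equal list lengths, merged peaks, other overlaps, pseudocounts and filters, and, added after seeing the data, peaks within 5 kb of the gene end.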

Additional observations from a re-analysis of the deposited data

Results flagged for a closer look

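Several values had opposite signs in the 2 conditions, each from 1 library per group, and the differences were not tested. The median log2 IP over input of genes with a 3′ UTR peak in the vehicle list alone was −0.31 in lactate cells and 0.22 in vehicle cells. Over all protein-coding genes with at least 1 FPKM in both conditions it was −0.11 in lactate cells and 0.31 in vehicle cells, which is the same order of signs. JAK1 had −0.38 in lactate cells and 0.44 in vehicle cells. STC1 ran the other way, with 0.25 in lactate cells and −0.29 in vehicle cells, from 98 and 53 reads in the lactate IP and input and 53 and 100 in the vehicle IP and input. Relative to the median of all these genes, the genes with a peak in the vehicle list alone stood at −0.20 in lactate cells and −0.092 in vehicle cells, so the signs no longer differed. JAK1, at −0.27 in lactate cells and 0.12 in vehicle cells, and STC1, at 0.36 in lactate cells and −0.60 in vehicle cells, kept opposite signs on this scale.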

How the results depend on the processing

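No paired analysis was possible because each group has 1 library. Of 116 values under other settings, over 22 results, 32 stayed within the counting interval or 1.5 times the main value, 83 moved and 1 changed sign. Reading any annotation field could not differ from the rule used, since no annotation had more than 1 colon, and its values are not counted here. Merging adjoining peaks joined none. The sign change was the median M, which became 0.15 once the median of all compared peaks was taken off, with 13.9% at M of at least 1 and 16.0% at M of at most −1. At q of at most 0.05 there were 4822 lactate peaks. Shares of protein-coding peaks were then 26.5% (lactate) and 21.9% (vehicle), median widths 358 bp (lactate) and 391 bp (vehicle), overlaps 79.1% (lactate) and 43.2% (vehicle), and the median M −0.29, with 3.16% at 1 or more and 22.0% at −1 or less. At q of at most 0.01, peaks numbered 4345 (lactate) and 7968 (vehicle), lactate genes 3291, shares were 28.5% (lactate) and 23.8% (vehicle), widths 369 bp (lactate) and 403 bp (vehicle), and lactate overlap 79.8%. The median M was then −0.27, with 2.73% at 1 or more and 20.5% at −1 or less. At 2-fold or more, shares were 17.3% (lactate) and 16.5% (vehicle), widths 306 bp (lactate) and 352 bp (vehicle), and overlaps 68.6% (lactate) and 43.1% (vehicle). With equal numbers of the strongest peaks the vehicle share was 21.7%, above the lactate share, the vehicle width 389 bp, and overlaps were 65.8% (lactate) and 53.6% (vehicle). Within 5 kb of the gene end there were 7501 vehicle peaks, shares of 12.2% (lactate) and 9.56% (vehicle), widths of 312 bp (lactate) and 350 bp (vehicle) and overlaps of 73.4% (lactate) and 48.2% (vehicle). The median M was −0.23 there, with 4.50% at 1 or more and 19.96% at −1 or less. Reciprocal overlap of at least 50% gave 56.2% (lactate) and 33.7% (vehicle), and any class 79.4% (lactate) and 43.8% (vehicle). With FPKM of at least 1 in both IPs, genes numbered 2254 (lactate) and 2650 (vehicle), with 2011 in both. At A of at least the median, M was −0.23, with 3.54% at 1 or more and 17.1% at −1 or less. For log2 IP over input of genes with a peak, a pseudocount of 0.1 gave medians of 0.93 (lactate) and 1.15 (vehicle), 47.4% (lactate) and 55.5% (vehicle) at 1 or more, and 8.22% (lactate) and 5.98% (vehicle) at −1 or less. Medians then exceeded those of genes without a peak by 1.89 (lactate) and 1.61 (vehicle). A pseudocount of 5 gave medians of 0.23 (lactate) and 0.30 (vehicle), 2.83% (lactate) and 7.89% (vehicle) at 1 or more, 1.03% in each at −1 or less, and excesses of 0.49 (lactate) and 0.47 (vehicle). Without an FPKM minimum the medians were 0.32 (lactate) and 0.41 (vehicle), 11.97% (lactate) and 21.1% (vehicle) lay at 1 or more, 2.12% (lactate) and 2.06% (vehicle) at −1 or less, and the excesses were 0.36 (lactate) and 0.43 (vehicle). Taking off the median of all genes gave medians of 0.71 (lactate) and 0.35 (vehicle), 30.7% (lactate) and 15.8% (vehicle) at 1 or more, and 3.45% (lactate) and 7.32% (vehicle) at −1 or less, which turns round which condition has the higher median. The causes were not tested beyond what each setting changes by construction.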
